A study of Mus musculus with 10 samples.

Results

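The genes described here serve protein folding, disulfide bond formation, stress sensing and protein disposal in the endoplasmic reticulum (ER). A list of 38 gene symbols was matched to the gene names of the deposited table, and 37 were found. The unmatched symbol, Ero1l, is an older name of Ero1a, which is in the table. All 37 genes had enough reads to be tested, among 11403 genes tested and 21898 in the table. The study sequenced bulk RNA of CD8+ T cells taken from spleens of mice labelled wild type (WT). The NAC group was cultured for 5 days in medium with 10 mM N-acetylcysteine (NAC), a thiol compound that supplies cysteine, and the control group for 5 days in normal medium. Each group had 5 libraries, numbered 1 to 5. The sources used here give no age, sex or strain of the mice, no stimulus in the medium, and no word on whether each library is its own animal or culture. The p-values therefore cover the scatter among these libraries alone, which could be technical.

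Secreted and membrane proteins fold in the ER lumen with the help of HSP70 and HSP90 type chaperones, of lectins that read the state of their sugar chains, and of protein disulfide isomerases that make and rearrange bonds between cysteines. The isomerases are reoxidised by ERO1 enzymes, which pass electrons to oxygen and form hydrogen peroxide, while proteins that fail to fold are carried to the cytosol and degraded. The membrane proteins ATF6, IRE1 and PERK sense unfolded proteins and adjust this capacity, and activated T cells depend on it as they grow and secrete cytokines and granzymes.

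In both groups libraries 1 and 2 differed from libraries 3 to 5, and principal component 1 of log2 CPM (read counts scaled to a common library size), with 50.8% of the variance, separated these sets. Cd4, which marks helper T cells, was at 486 and 521 CPM in NAC 1 and 2 and at 467 and 465 CPM in control 1 and 2, against 2.23 to 2.76 CPM in NAC 3 to 5 and 0.766 to 1.999 CPM in control 3 to 5. The sum of Cd8a and Cd8b1, which encode the CD8 co-receptor, was 386 to 398 CPM in NAC 1 and 2 and 286 to 297 CPM in control 1 and 2, against 1018 to 1080.0 CPM in NAC 3 to 5 and 778 to 804 CPM in control 3 to 5. The Cd4 level of libraries 1 and 2 goes against their CD8+ label, so each main result is also given for libraries 3 to 5. The labels name no batch that would match the sets. In bulk RNA, fewer cells of a type and less RNA per cell cannot be told apart. Totals ran between 13298108 and 17706439 reads per library.

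By level per gene length (FPKM, reads scaled to gene length and library total, as the authors deposited it), chaperones and the abundant isomerases led. Calr, a calcium-binding lectin chaperone, averaged 207 ± 30.2 FPKM with NAC and 269 ± 56.8 FPKM in control (SD, n = 5 each). Hspa5, which encodes the HSP70 chaperone BiP, averaged 222 ± 68.6 and 226 ± 9.04 FPKM in NAC and control. Pdia3, P4hb, Canx and Hsp90b1 followed. At the low end were Ern1, the gene of the stress sensor IRE1, with 2.17 ± 0.801 FPKM with NAC and 1.92 ± 0.450 FPKM in control, and Ero1b, an ERO1 oxidase gene, with 2.60 ± 0.171 and 1.67 ± 0.353 FPKM. The order of the neighbours Calr and Hspa5 depended on the set. Calr was higher in each of NAC 1, NAC 2, control 1 and control 2, for instance 338 against 213 FPKM in control 1. In NAC 3 to 5 Hspa5 was higher (267 to 275 against 217 to 224 FPKM). In control 3 to 5 they lay close (Hspa5 232 to 234 and Calr 223 to 235 FPKM). This order also rests on the deposited gene lengths, 4229 bases for Hspa5 and 2880 bases for Calr. In CPM, which leaves length out, Calr was above Hspa5 only in control 1 (974 against 899.9 CPM).

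**Figure D1:**
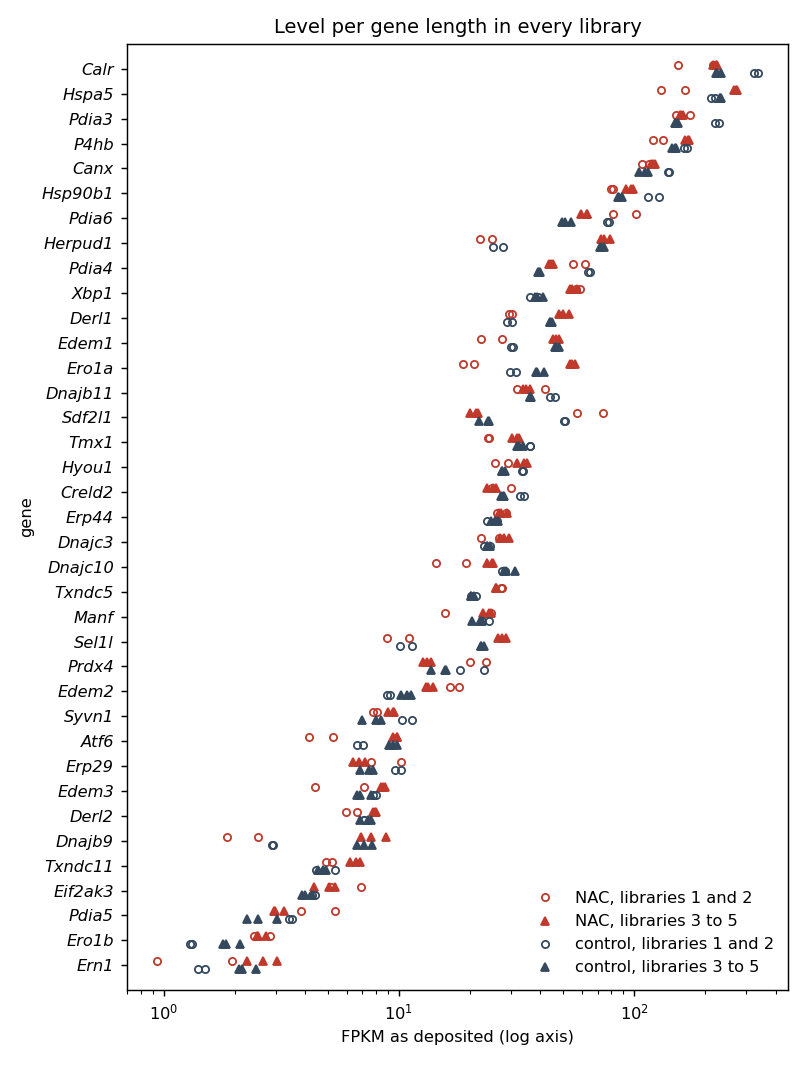
FPKM as deposited (horizontal log axis) of 37 ER genes (vertical axis, highest mean at the top) in each of 10 libraries, with NAC in red, control in dark blue, libraries 1 and 2 as open circles and libraries 3 to 5 as filled triangles. The genes run from Ern1, with a mean of 2.17 ± 0.801 FPKM with NAC, to Calr, with 207 ± 30.2 FPKM, and for Herpud1 and Sel1l the open circles of both groups lie left of the triangles.

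Many ER genes carry in their promoters the ER stress element, CCAAT followed by 9 bases of any kind and CCACG, to which ATF6 and XBP1 are known to bind with the factor NF-Y. It was searched on both strands of RefSeq windows (build GRCm38.p6) that run from 250 bases before to 50 bases after a start site. Of the 37 genes, 32 had a window, and 9 of these (Calr, Canx, Creld2, Dnajc3, Ero1b, Hsp90b1, Hspa5, Pdia6 and Syvn1) held the element, which 39 of all 32851 windows (0.119%) contained. The names Atf6, Derl1, Erp29, Hyou1 and Manf had no entry. The first count is of genes and the second of windows. Many ER genes are known to carry the element and the list holds ER genes, so its share there is no independent result. Each of the 10 matches is shown on the strand of its gene, 5′ to 3′, with 8 bases on either side. Capitals mark CCAAT and CCACG or, for a match on the other strand, CGTGG and ATTGG.
Calr (chr8:84847067-84847101, minus strand): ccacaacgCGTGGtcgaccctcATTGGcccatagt
Canx (chr11:50325792-50325826, minus strand): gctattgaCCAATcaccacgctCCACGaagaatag
Creld2 (chr15:88819512-88819546, plus strand): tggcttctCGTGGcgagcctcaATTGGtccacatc
Dnajc3 (chr14:118937819-118937853, plus strand): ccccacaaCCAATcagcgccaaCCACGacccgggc
Ero1b (chr13:12565674-12565708, plus strand): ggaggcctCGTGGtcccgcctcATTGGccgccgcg
Hsp90b1 (chr10:86705525-86705559, minus strand): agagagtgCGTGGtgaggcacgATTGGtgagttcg
Hsp90b1 (chr10:86705630-86705664, minus strand): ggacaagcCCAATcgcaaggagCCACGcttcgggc
Hspa5 (chr2:34772017-34772051, plus strand): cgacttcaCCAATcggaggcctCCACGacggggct
Pdia6 (chr12:17266483-17266517, plus strand): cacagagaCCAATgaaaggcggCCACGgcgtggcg
Syvn1 (chr19:6046524-6046558, plus strand): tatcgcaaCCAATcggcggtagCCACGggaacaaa

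The windows of a gene that rose with NAC (Ero1b) and of the most abundant gene of an HSP70 or HSP90 chaperone (Hspa5) are given up to the base before the start site. In Hspa5 (chr2:34771840-34772089, plus strand) capitals mark the ER stress element and the separate letters TGACGTG, the core of a site that XBP1 is known to bind. In Ero1b (chr13:12565633-12565882, plus strand) they mark the ER stress element on the other strand.
Hspa5: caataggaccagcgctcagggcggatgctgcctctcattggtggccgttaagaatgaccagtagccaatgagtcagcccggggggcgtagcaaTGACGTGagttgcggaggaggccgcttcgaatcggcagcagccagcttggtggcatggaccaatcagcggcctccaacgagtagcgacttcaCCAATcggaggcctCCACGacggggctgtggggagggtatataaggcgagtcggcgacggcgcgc
Ero1b: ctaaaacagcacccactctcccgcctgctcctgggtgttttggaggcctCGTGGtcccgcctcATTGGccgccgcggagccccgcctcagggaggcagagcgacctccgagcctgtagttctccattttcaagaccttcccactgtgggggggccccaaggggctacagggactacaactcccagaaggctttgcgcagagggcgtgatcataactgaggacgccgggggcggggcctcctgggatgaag

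The letters TGACGTG were in 2.01% of all windows and in those of Hspa5, Txndc5 and Txndc11, with no overlap with an ER stress element. These matches describe letters in a window and not the binding of a factor.

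The question put to these cultures was what NAC does to CD8+ T cells. Over all 10 libraries, 4 of the 37 genes rose with NAC and none fell in edgeR's quasi-likelihood test at an adjusted p of 0.05. Over all genes tested 6.69% were called higher and 4.88% lower, so the 4 genes are 10.8% of the list beside a background of 11.6% called in either direction. The genes that rose encode a stress transcription factor (Xbp1), an isomerase (Txndc5), an oxidase (Ero1b) and a protein of misfolded glycoprotein disposal (Edem2). The median log2 fold change of the 37 genes was -0.019, against 0.012 over all genes tested. At an unadjusted p of 0.05, 6 of the 37 genes (the 4 above with Eif2ak3 and Txndc11) were higher and 4 (Calr, Creld2, Dnajc10 and Tmx1) lower, 27.0% in all, beside 16.5% higher, 13.5% lower and 30.0% in either direction over all genes tested. DESeq2's Wald test called 1 of the 37 lower (Dnajc10).

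Xbp1 (ENSMUSG00000020484, chromosome 11) encodes the transcription factor that is made active when IRE1 splices its messenger RNA. It was at 186, 183, 173, 174 and 185 CPM in NAC libraries 1 to 5 and at 118, 127, 125, 129 and 136 CPM in control libraries 1 to 5. All NAC libraries were above all control libraries, and the 5 values of each group lay close together. The log2 fold change was 0.51 ± 0.069 (SE; adjusted p = 0.00304 by edgeR), 0.60 ± 0.07 in libraries 1 and 2 and 0.45 ± 0.058 in libraries 3 to 5. A count per gene does not separate spliced from unspliced Xbp1.

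Txndc5 (ENSMUSG00000038991, chromosome 13) encodes an isomerase with several thioredoxin-like domains. It was at 123, 118, 115, 114 and 116 CPM in NAC libraries 1 to 5 and at 91.0, 94.5, 92.8, 93.6 and 95.9 CPM in control libraries 1 to 5. The groups did not overlap, and the library sets hardly differed within either group. Its log2 fold change was 0.33 ± 0.061 (SE; adjusted p = 0.0111 by edgeR), being 0.38 ± 0.064 within libraries 1 and 2, and 0.29 ± 0.053 within libraries 3 to 5.

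Edem2 (ENSMUSG00000038312, chromosome 2) encodes a protein that starts mannose trimming of misfolded glycoproteins. It was at 57.5, 59.9, 48.3, 45.6 and 44.8 CPM in NAC libraries 1 to 5 and at 30.9, 31.4, 36.2, 38.5 and 39.99 CPM in control libraries 1 to 5. NAC 1 and 2 were the highest of all libraries and control 1 and 2 the lowest. The log2 fold change was 0.53 ± 0.12 (SE; adjusted p = 0.0192 by edgeR). Libraries 1 and 2 gave 0.91 ± 0.084 and libraries 3 to 5 gave 0.27 ± 0.068, and this difference between the sets passed the interaction test (adjusted p = 0.000567 by edgeR).

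Ero1b (ENSMUSG00000057069, chromosome 13) encodes one of the mammalian ERO1 oxidases. It was at 16.2, 17.96, 16.5, 17.97 and 16.7 CPM in NAC libraries 1 to 5 and at 8.65, 8.73, 12.4, 12.2 and 14.5 CPM in control libraries 1 to 5. The NAC values were alike in both sets, while control 1 and 2 were below control 3 to 5. The fitted log2 fold change was 0.60 ± 0.15 (SE; adjusted p = 0.0332 by edgeR), 0.98 ± 0.13 in libraries 1 and 2 and 0.39 ± 0.10 in libraries 3 to 5 (interaction adjusted p = 0.0124). Its call ended without control 1, 2, 3 or 4 or NAC 2, 3, 4 or 5 (adjusted p 0.0515 to 0.0731 by edgeR), and with no filter on low counts (adjusted p = 0.0531).

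Xbp1, Txndc5 and Edem2 were called higher under all 21 alternatives run. In libraries 3 to 5 fitted alone, Xbp1, Txndc5, Edem2 and Ero1b were each called higher (adjusted p 7.04e-13, 1.59e-07, 0.000323 and 0.00159 by edgeR). They were also called higher in the fit with the library number as a replicate block (paired by number), where 11.5% of all genes were higher and 19.8% called in either direction. That block also called Dnajc10 lower (log2 fold change -0.48, adjusted p = 0.0294 by edgeR), so that 1 gene of the list fell, with 8.22% of all genes lower. Dnajc10 did not pass in the main test (adjusted p = 0.0611 by edgeR), which has neither a block nor a term for the set.

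**Figure D2:**
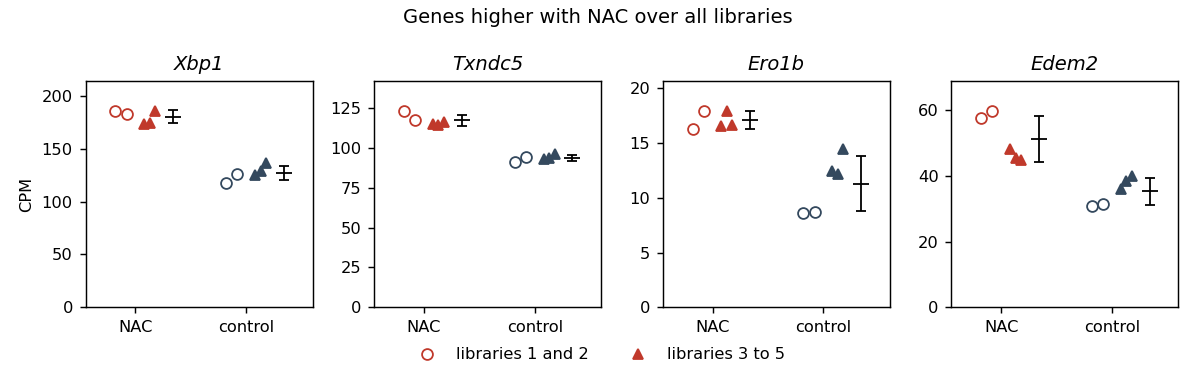
CPM (vertical axes, from 0) of the 4 genes called higher with NAC, for NAC (red) and control (dark blue) libraries, with libraries 1 and 2 as open circles, libraries 3 to 5 as filled triangles, and black bars for the mean and SD over 5 libraries. For each gene all NAC points lie above all control points, and in Edem2 the open circles are the outermost points (57.5 and 59.9 CPM with NAC against 30.9 and 31.4 CPM in control).

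For 3 genes all NAC libraries were below all control libraries without a call in the main test: Calr, Tmx1 and Dnajc10. A fit of all libraries with a term for the library set called Tmx1 and Dnajc10 lower (adjusted p = 0.0286 and 0.0038 by edgeR). It did not call Calr (adjusted p = 0.0559). Such separation downward was seen for 7.75% of all genes tested, beside 8.11% of the list. Upward separation was seen for the 4 called genes, 10.8% of the list beside 8.62% of all genes.

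Within the library sets more of the genes passed, and many had opposite signs in the sets. In libraries 1 and 2, contrasts in a fit with a mean for each group and set called 18 of the 37 genes lower with NAC and 6 higher, beside 28.3% lower and 32.2% higher over all genes tested (24 of 37, or 64.9%, in either direction beside 60.5%). In libraries 3 to 5 the same fit called 9 higher and 1 lower, beside 15.0% higher and 14.0% lower over all genes (10 of 37, or 27.0%, in either direction beside 29.0%). The median log2 fold change of the list was -0.19 within libraries 1 and 2, and 0.12 within libraries 3 to 5, against 0.042 and 0.0041 over all genes. The interaction test, which asks whether the NAC effect differs between the sets, called 20 of the 37 genes (54.1%), beside 41.9% of all genes. For 17 of them the effect was more negative in libraries 1 and 2 (20.0% of all genes) and for 3, Edem2, Ero1b and Sdf2l1, more positive (21.9% of all genes). The sets were recognised from earlier results of these data and coincide with the difference in Cd4 and Cd8a, whose part in the result was not tested.

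Fits to each set alone, each with its own estimate of the spread, gave other counts. Libraries 1 and 2 alone called 12 genes lower and 4 higher, beside 20.1% lower and 23.7% higher over all genes (43.2% of the list in either direction beside 43.8%). Libraries 3 to 5 alone called 19 higher and 7 lower, beside 23.7% higher and 25.0% lower (70.3% of the list in either direction beside 48.7%). A fit of all libraries with a term for the set called 7 higher and 3 lower, beside 20.1% higher, 16.4% lower and 36.4% in either direction. The 7 were Xbp1, Txndc5, Edem2, Ero1b, Eif2ak3, Pdia6 and Txndc11, and the 3 were Creld2, Dnajc10 and Tmx1. Values within a set given below come from the contrasts, with 1 estimate of the spread for all libraries, unless a fit to the set alone is named. The fitted effects had opposite signs in the sets for 19 of the 37 genes (51.4%), beside 35.6% of all genes tested.

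**Figure D3:**
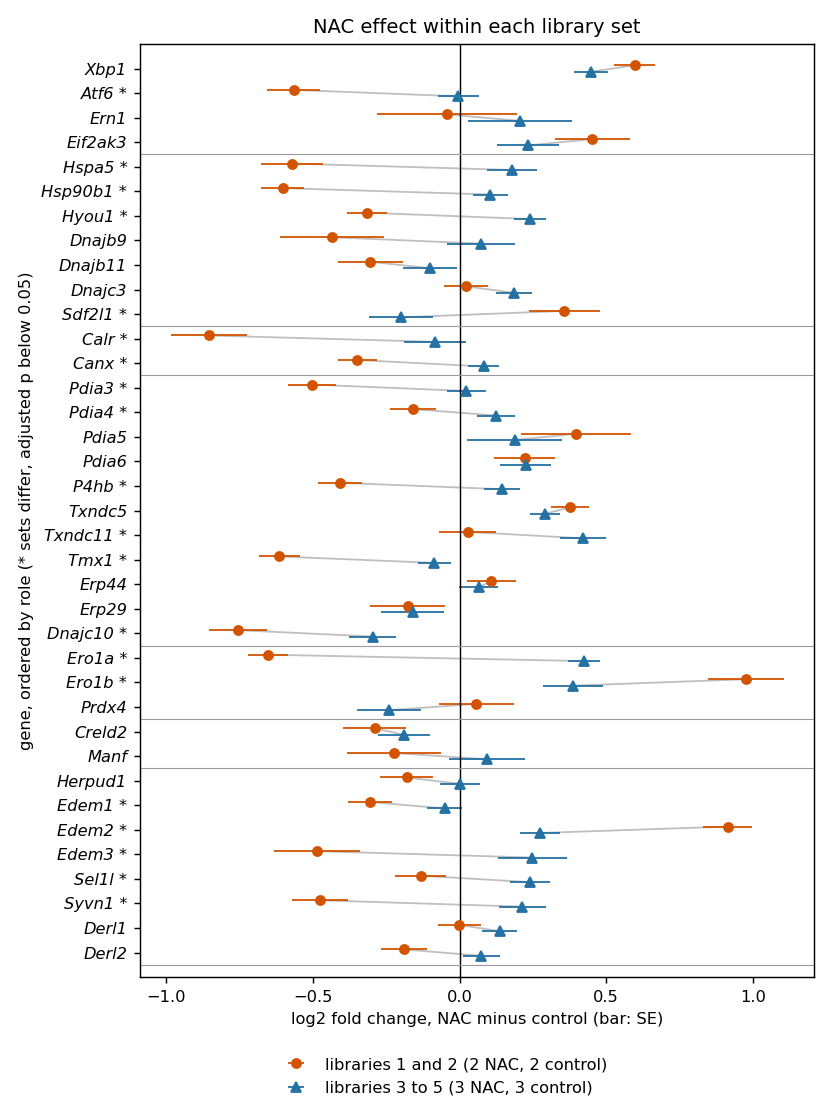
Log2 fold change, NAC minus control (horizontal axis), of 37 ER genes (vertical axis, ordered by role, rules between roles) in libraries 1 and 2 (orange circles) and libraries 3 to 5 (blue triangles), with bars for the SE and an asterisk where the sets differed in the interaction test. Most orange points lie left of the blue ones, as for Ero1a at -0.65 and 0.43. Among genes with an asterisk, only Edem2, Ero1b and Sdf2l1 lie the other way. Some genes without an asterisk do so too, such as Xbp1 at 0.60 and 0.45.

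Of the sensors and their transcription factors, only Xbp1 was called higher over all libraries in the main test. Atf6, which encodes a membrane-bound transcription factor released by proteolysis, was at 38.6, 46.5, 89.8, 89.3 and 87.0 CPM in NAC libraries 1 to 5 and 65.1, 60.9, 85.2, 92.5 and 89.0 CPM in control libraries 1 to 5. NAC 1 and 2 were the lowest libraries, and the groups overlapped in libraries 3 to 5. Its log2 fold change was -0.57 ± 0.091 in libraries 1 and 2 (adjusted p = 0.000138 by edgeR) and -0.0044 ± 0.071 in libraries 3 to 5 (adjusted p = 0.971). Eif2ak3, the gene of PERK, a kinase that slows translation under ER stress, was at 31.2, 39.9, 30.1, 31.9 and 26.1 CPM in NAC libraries 1 to 5 and 26.5, 25.5, 23.7, 24.7 and 26.4 CPM in control libraries 1 to 5. The groups overlapped, and NAC 2 was the highest library. Eif2ak3 was higher in libraries 1 and 2 (log2 fold change 0.45 ± 0.13, adjusted p = 0.00775 by edgeR in the contrasts). It was called higher in libraries 3 to 5 alone and not in libraries 1 and 2 alone (adjusted p = 0.0146 and 0.0569 by edgeR). Over all libraries it did not pass in the main test (adjusted p = 0.0812), but did with a term for the set (adjusted p = 0.0204 by edgeR). Ern1 was at 7.70, 15.3, 21.5, 24.6 and 18.4 CPM in NAC libraries 1 to 5 and 11.5, 12.2, 20.4, 17.9 and 17.6 CPM in control libraries 1 to 5. The groups overlapped in both sets, and neither set passed (adjusted p by edgeR of 0.89 in libraries 1 and 2, 0.413 in the others).

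In the contrasts, 5 of 7 genes of HSP70 and HSP90 type chaperones and their partners fell and 1 rose with NAC in libraries 1 and 2. In libraries 3 to 5 none fell and 2 rose. Over all genes tested, 28.3% fell and 32.2% rose in libraries 1 and 2, and 14.0% and 15.0% in the others. Fitted alone, libraries 1 and 2 called 3 lower (Hspa5, Hsp90b1 and Hyou1) and none higher, beside 20.1% and 23.7% of all genes. Libraries 3 to 5 alone called 4 higher (Hspa5, Hsp90b1, Hyou1 and Dnajc3) and 2 lower (Dnajb11 and Sdf2l1), beside 23.7% and 25.0%. Role groups were not tested as sets. Hspa5 was at 704, 527, 1154, 1115 and 1143 CPM in NAC libraries 1 to 5 and 899.9, 931, 997, 1012 and 1007 CPM in control libraries 1 to 5. NAC 1 and 2 were the lowest of all libraries and NAC 3 to 5 the highest. The fitted log2 fold change was -0.57 ± 0.10 in libraries 1 and 2 (adjusted p = 0.000408 by edgeR, and 0.0226 in the fit to libraries 1 and 2 alone). In libraries 3 to 5 it was 0.18 ± 0.085 (adjusted p = 0.136 by edgeR, and 2.9e-06 in the fit to libraries 3 to 5 alone). The sets differed (interaction adjusted p = 0.000871 by edgeR).

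Hsp90b1, the gene of the ER HSP90 chaperone GRP94, was at 332, 308, 388, 394 and 373 CPM in NAC libraries 1 to 5 and 514, 459, 367, 352 and 356 CPM in control libraries 1 to 5. Control 1 and 2 were the highest libraries, and NAC 1 and 2 the lowest. The log2 fold change was -0.60 ± 0.072 in libraries 1 and 2 (adjusted p = 1.27e-05 by edgeR) and 0.10 ± 0.059 in libraries 3 to 5 (adjusted p = 0.203). Hyou1, which encodes an exchange factor of BiP, was at 188, 202, 229, 244 and 253 CPM in NAC libraries 1 to 5 and 242, 243, 202, 209.7 and 203 CPM in control libraries 1 to 5. NAC 1 was the lowest library and NAC 5 the highest, and the groups overlapped over all libraries. It was called in both sets in opposite directions, falling in libraries 1 and 2 (log2 fold change -0.32 ± 0.068, adjusted p = 0.00135 by edgeR) and rising in libraries 3 to 5 (0.24 ± 0.056, adjusted p = 0.00622).

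The co-chaperones of BiP with a J domain varied. In the contrasts, Dnajb9 and Dnajb11 fell in libraries 1 and 2 (log2 fold change -0.44 and -0.31), and Dnajc3, which also restrains PERK, rose in libraries 3 to 5 (0.18). Sdf2l1, whose product works with the J-domain protein of Dnajb11, rose in libraries 1 and 2 by 0.36 on the log2 scale (adjusted p = 0.0198 by edgeR) and had a log2 fold change of -0.20 in libraries 3 to 5 (adjusted p = 0.192). In the fits to each set alone, Dnajb9, Dnajb11 and Sdf2l1 were not called in libraries 1 and 2 (adjusted p = 0.128, 0.144 and 0.132 by edgeR). It was thus the one gene of this role whose effect was more positive in libraries 1 and 2 (interaction adjusted p = 0.0148).

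The lectin chaperone genes fell in libraries 1 and 2. Calr was at 629, 422, 642, 618 and 642 CPM in NAC libraries 1 to 5 and 974, 927, 663, 657 and 694 CPM in control libraries 1 to 5. NAC 2 was the lowest library, and control 1 and 2 the highest. The log2 fold change was -0.85 ± 0.13 in libraries 1 and 2 (adjusted p = 9.87e-05 by edgeR) and -0.083 ± 0.11 in libraries 3 to 5 (adjusted p = 0.593). Canx, the membrane-bound lectin chaperone, had log2 fold changes of -0.35 ± 0.067 (adjusted p = 0.000563) and 0.082 ± 0.054 (adjusted p = 0.279 by edgeR) in the sets in the same order. In libraries 3 to 5 alone Calr was called lower and Canx higher (adjusted p = 0.0243 and 0.0339 by edgeR).

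Of 11 genes of disulfide isomerases and related thioredoxin-like proteins, 4 fell and 1 rose in libraries 1 and 2, and 1 fell and 2 rose in libraries 3 to 5, in the contrasts. Libraries 1 and 2 alone gave the same counts, and libraries 3 to 5 alone called 5 higher (P4hb, Pdia4, Pdia6, Txndc5 and Txndc11) and 2 lower (Dnajc10 and Erp29). Over all genes and in either direction, libraries 1 and 2 had 60.5% called in the contrasts and 43.8% alone. Libraries 3 to 5 had 29.0% and 48.7%. Pdia3, the isomerase that works with the lectin chaperones, was at 545, 452, 491, 489.8 and 505 CPM in NAC libraries 1 to 5 and 694, 719, 483, 496 and 483 CPM in control libraries 1 to 5. Control 1 and 2 stood above all other libraries. Its log2 fold change was -0.50 ± 0.082 in libraries 1 and 2 (adjusted p = 0.000166 by edgeR) and 0.023 ± 0.067 in libraries 3 to 5 (adjusted p = 0.829).

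P4hb, the gene of the founding protein disulfide isomerase, was at 385, 329, 484, 464 and 491 CPM in NAC libraries 1 to 5 and 469, 478, 433, 441 and 427 CPM in control libraries 1 to 5. NAC 1 and 2 were lowest, and NAC 3 and 5 highest. The fitted log2 fold change was -0.41 ± 0.077 in libraries 1 and 2 (adjusted p = 0.000486 by edgeR) and 0.14 ± 0.062 in libraries 3 to 5 (adjusted p = 0.0993). Tmx1, a membrane-bound member of the family, was at 80.3, 75.2, 99.5, 103.9 and 107.1 CPM in NAC libraries 1 to 5 and 119.6, 118.6, 112.7, 109.5 and 107.3 CPM in control libraries 1 to 5. The groups nearly touched in libraries 3 to 5, and the log2 fold change was -0.62 ± 0.069 in libraries 1 and 2 (adjusted p = 7.46e-06 by edgeR) and -0.086 ± 0.056 in libraries 3 to 5 (adjusted p = 0.27).

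Dnajc10, whose product ERdj5 reduces disulfides of proteins bound for degradation, fell in both sets, and was chosen after its values were seen. It was at 72.7, 92.7, 117, 125 and 124 CPM in NAC libraries 1 to 5 and 142, 137, 159.5, 147 and 144 CPM in control libraries 1 to 5. All NAC libraries were below all control libraries, NAC 1 the farthest. The log2 fold change was -0.76 ± 0.10 in libraries 1 and 2 (adjusted p = 2.67e-05 by edgeR) and -0.30 ± 0.079 in libraries 3 to 5 (adjusted p = 0.014). Txndc11 rose in libraries 3 to 5 (0.42 ± 0.078, adjusted p = 0.00163 by edgeR) and had a log2 fold change of 0.028 in libraries 1 and 2. Pdia4, Pdia5, Pdia6, Erp29 and Erp44, the last known to retain ERO1 enzymes in the ER, passed in neither set in the contrasts, with log2 fold changes from -0.18 to 0.40 in libraries 1 and 2 and from -0.16 to 0.22 in libraries 3 to 5. In libraries 3 to 5 alone the adjusted p was 2.66e-06 for Pdia6, 0.0146 for Pdia4 and 0.0152 for Erp29 by edgeR.

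In libraries 1 and 2 the ERO1 oxidase genes were called in opposite directions. Ero1a (ENSMUSG00000021831, chromosome 14), whose product oxidises the isomerases, was at 99.9, 105, 281, 292 and 287 CPM in NAC libraries 1 to 5 and 166, 156, 223, 209 and 207 CPM in control libraries 1 to 5. NAC 1 and 2 were the lowest libraries and NAC 3 to 5 the highest, with control between them. It fell in libraries 1 and 2, with a log2 fold change of -0.65 ± 0.068 (adjusted p = 4.06e-06 by edgeR) and rose in libraries 3 to 5 by 0.43 ± 0.054 (adjusted p = 0.000128). The difference between the sets, -1.08 ± 0.087 (SE; adjusted p = 3.35e-06 by edgeR), was the largest of the 37 genes. Over all libraries Ero1a had a log2 fold change of 0.15 ± 0.31 (adjusted p = 0.785). Prdx4, the ER peroxiredoxin that uses hydrogen peroxide to form disulfides, was at 49.7, 40.2, 27.7, 26.4 and 28.6 CPM in NAC libraries 1 to 5 and 38.2, 48.3, 29.5, 33.8 and 34.3 CPM in control libraries 1 to 5. Its groups overlapped in libraries 1 and 2, NAC 3 to 5 were the lowest libraries, and it passed in neither set in the contrasts (adjusted p by edgeR of 0.718 in libraries 1 and 2, 0.117 in the others), while libraries 3 to 5 alone called it lower (adjusted p = 0.00588).

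**Figure D4:**
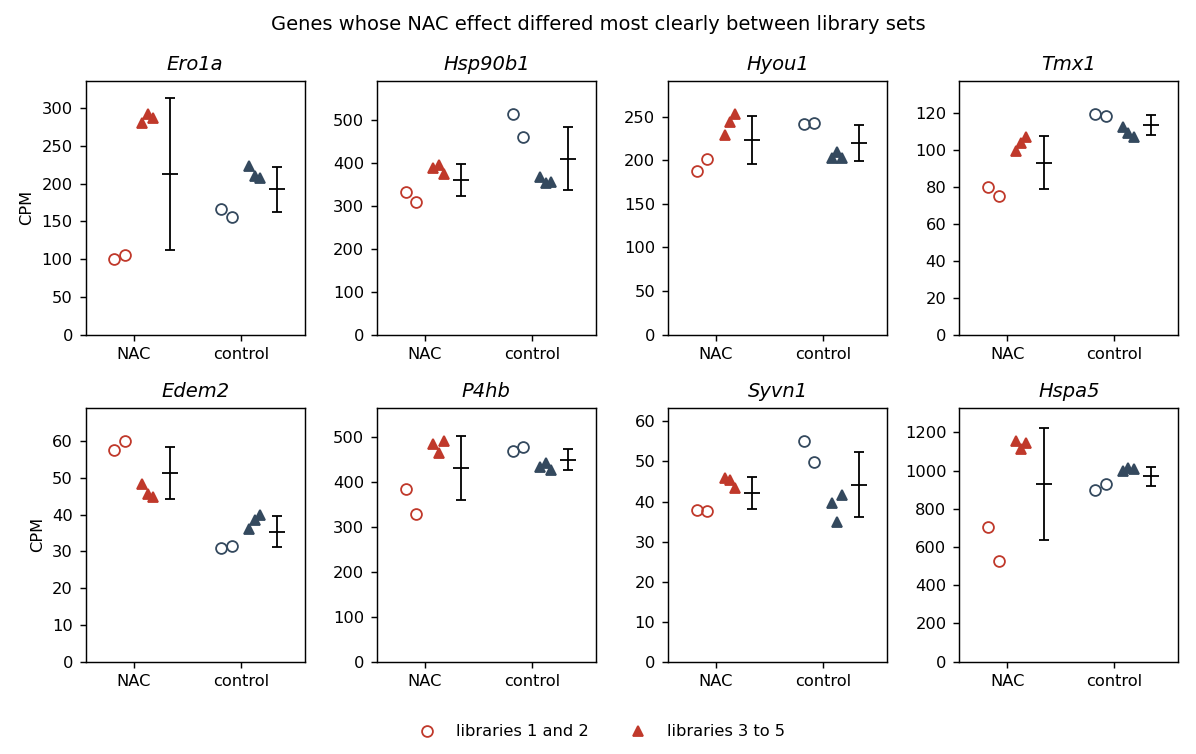
CPM (vertical axes, from 0) of the 8 genes with the smallest adjusted p in the interaction test, for NAC (red) and control (dark blue) libraries, with libraries 1 and 2 as open circles, libraries 3 to 5 as filled triangles, and black bars for the mean and SD over 5 libraries. For Ero1a and Hspa5 the open NAC circles lie below and the NAC triangles above all control points, and in Edem2 both lie above.

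Creld2 and Manf encode ER proteins induced by stress. Creld2 was at 41.5, 32.6, 35.2, 32.1 and 34.3 CPM in NAC libraries 1 to 5 and 44.6, 46.0, 37.7, 39.3 and 38.9 CPM in control libraries 1 to 5. The groups overlapped. In the contrasts the log2 fold change was -0.29 ± 0.11 in libraries 1 and 2 (adjusted p = 0.0302 by edgeR) and -0.19 ± 0.088 in libraries 3 to 5 (adjusted p = 0.125). The fits to each set alone reversed which set passed, with an adjusted p of 0.145 for libraries 1 and 2 and 0.0159 for libraries 3 to 5 by edgeR. Manf passed in neither set, in the contrasts or alone.

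Of 8 genes of ER-associated degradation, 4 fell and 1, Edem2, rose in libraries 1 and 2, and 2 rose in libraries 3 to 5, in the contrasts. Fitted alone, libraries 1 and 2 called Syvn1 lower and Edem2 higher, and libraries 3 to 5 called 5 higher (Derl1, Edem2, Edem3, Sel1l and Syvn1) and none lower. The shares of all genes called in either direction were 60.5% in the contrasts and 43.8% alone for libraries 1 and 2. For libraries 3 to 5 they were 29.0% and 48.7%. Syvn1, the gene of the ubiquitin ligase HRD1, was at 38.0, 37.6, 45.8, 45.4 and 43.4 CPM in NAC libraries 1 to 5 and 55.1, 49.97, 39.6, 34.8 and 41.6 CPM in control libraries 1 to 5. Control 1 and 2 were above all other libraries. Its log2 fold change was -0.48 ± 0.10 in libraries 1 and 2 (adjusted p = 0.000834 by edgeR) and 0.21 ± 0.079 in libraries 3 to 5 (adjusted p = 0.0568). Sel1l, the partner of HRD1, rose in libraries 3 to 5 (0.24) and had a log2 fold change of -0.13 in libraries 1 and 2.

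In the contrasts, the EDEM genes were called in different directions in libraries 1 and 2, where Edem2 rose while Edem1 (-0.31 ± 0.075, adjusted p = 0.00323 by edgeR) and Edem3 (-0.49 ± 0.15, adjusted p = 0.0112) fell. Derl2, which encodes a membrane protein of the retrotranslocation machinery, fell there at the threshold (log2 fold change -0.19, adjusted p = 0.04997), and Derl1 had a log2 fold change of -0.00096. The calls of Edem1, Edem3 and Derl2 ended in libraries 1 and 2 alone (adjusted p = 0.0649, 0.063 and 0.211 by edgeR). Herpud1, which encodes an organiser of the HRD1 complex, was at 58.8, 49.6, 172, 167 and 184 CPM in NAC libraries 1 to 5 and 58.7, 64.2, 172, 172 and 179 CPM in control libraries 1 to 5. It separated the sets and not the groups, and passed in neither set (adjusted p by edgeR of 0.0975 in libraries 1 and 2, 0.987 in the others).

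The sets also differed without NAC. In control, Herpud1 was 2.83-fold, Dnajb9 2.53-fold and Sel1l 2.15-fold lower in libraries 1 and 2 than in libraries 3 to 5, while Sdf2l1 was 2.11-fold, Pdia4 1.596-fold and Pdia6 1.47-fold higher. These folds are fitted values between the means of 2 and 3 libraries, given without a test because the sets were recognised from measured values. By role, the median log2 difference of control 1 and 2 minus control 3 to 5 was lowest for the 8 degradation genes (-0.46). It was highest for the 2 lectin chaperones (0.40), and the other roles lay between, for instance oxidases at -0.40. Over all genes tested the median was 0.00064, which does not tell how many genes differed.

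**Figure D5:**
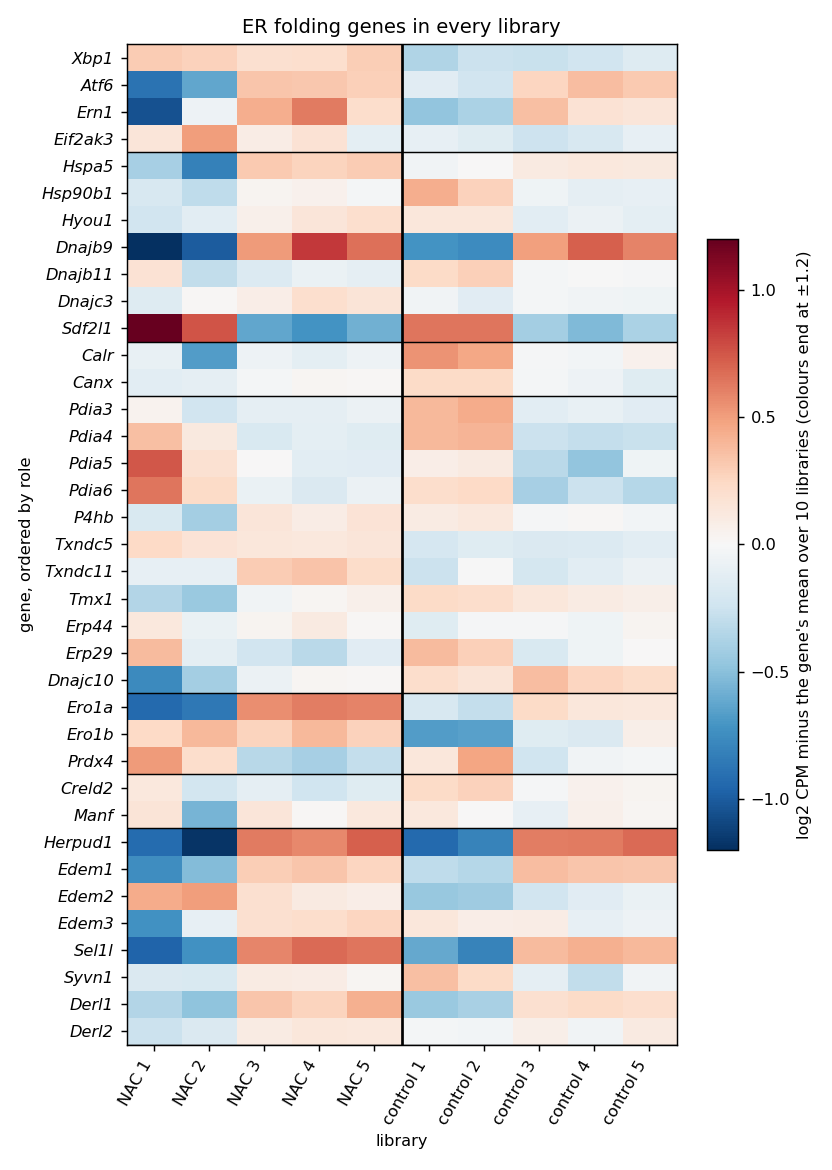
Log2 CPM minus the gene's own mean over 10 libraries (colour, ending at ±1.2) for 37 ER genes (rows, ordered by role) in NAC libraries 1 to 5 and control libraries 1 to 5 (columns). Herpud1, Dnajb9 and Sel1l are blue in the libraries 1 and 2 of both groups, Sdf2l1 is red there, and Xbp1 and Txndc5 divide by group instead.

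Of the 9 genes with an ER stress element 1, Ero1b, rose over all libraries. Of the 23 genes whose window lacked it 3 rose, beside 6.69% of all genes tested. The median log2 fold change of the 9 genes was -0.35 in libraries 1 and 2 (range -0.85 to 0.98) and 0.18 in libraries 3 to 5 (range -0.19 to 0.39). For the 23 genes whose window lacked these letters it was -0.16 in libraries 1 and 2 (range -0.76 to 0.91) and 0.12 in libraries 3 to 5 (range -0.30 to 0.45), so the ranges overlapped widely.

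Other genes of the ER and early secretory pathway were taken from 7 lists with 168 tested genes. Over all libraries 11 rose and 4 fell, beside the 6.69% and 4.88% of all genes given above, with a median log2 fold change of 0.010. Of 18 other thiol oxidoreductase genes 3 rose, among them Qsox1, a disulfide-forming oxidase, at 39.9 ± 8.57 CPM with NAC and 25.1 ± 2.03 CPM in control (SD, n = 5 each; log2 fold change 0.67 ± 0.14 SE, adjusted p = 0.0173 by edgeR), and Gpx7, a peroxidase of the ER, at 2.22 ± 0.357 and 1.05 ± 0.312 CPM (1.09 ± 0.27, adjusted p = 0.0273). Of 22 other folding genes 2 rose, Fkbp7 and Lrpap1 (log2 fold change 1.31 and 0.45). Of 21 other stress transducers and regulators 1 rose, Creb3l2, a membrane-bound transcription factor related to ATF6, at 30.4 ± 6.26 CPM with NAC and 14.1 ± 2.58 CPM in control (1.11 ± 0.18, adjusted p = 0.00626 by edgeR).

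Of 27 genes of ER to Golgi transport 2 rose, Sec24d, a cargo adaptor of COPII vesicles, at 26.6 ± 6.01 CPM with NAC and 8.73 ± 3.45 CPM in control (1.602 ± 0.27, adjusted p = 0.00693 by edgeR), and Tmed3 (0.45). Of 32 translocation and signal peptide genes, Sec11c, a subunit of signal peptidase, rose (0.45) and Srpr fell (-0.28). Among 35 other degradation genes Tram1, better known for protein translocation into the ER, rose (0.36) and Ube2g2 and Ube2j1 fell (-0.40 and -0.26). Of 13 calcium genes Itpr2, a calcium release channel, rose (0.41), and Atp2a2, the pump that fills the ER with calcium, fell to 341 ± 39.97 CPM with NAC, against 472 ± 56.0 CPM in control (-0.47 ± 0.11, adjusted p = 0.0245 by edgeR). Creb3l2, Qsox1, Sec11c and Sec24d were called under all 21 alternatives run, Fkbp7 under 20, Atp2a2 under 18 and Lrpap1 under 17. Tmed3 was called under 16, Tram1 under 15, Gpx7 under 14, Itpr2 and Ube2g2 under 11, and Srpr and Ube2j1 under 5. In the contrasts within sets, Itpr2 and Tram1 did not pass in libraries 1 and 2 (adjusted p = 0.306 and 0.1002 by edgeR), and Srpr and Ube2j1 did not pass in libraries 3 to 5 (adjusted p = 0.0652 and 0.0721). Log2 fold changes follow for libraries 1 and 2, then 3 to 5. They differed for Atp2a2 (-0.84, -0.22), Qsox1 (0.87, 0.50), Lrpap1 (0.73, 0.27) and Tmed3 (0.72, 0.29). They also differed for Tram1 (0.13, 0.52), Itpr2 (0.15, 0.59), Srpr (-0.48, -0.15) and Ube2j1 (-0.45, -0.13). The interaction adjusted p by edgeR was 8.26e-05 for Atp2a2 and 0.00217 to 0.0342 for the rest. The other named genes did not pass that test.

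Plasma cells are rich in these ER genes, so their markers are given beside the results. Jchain, Mzb1 and Tnfrsf17 were below 1 CPM in every library. Sdc1 was at 22.3 to 24.5 CPM in NAC 1 and 2 and 11.5 to 13.4 CPM in control 1 and 2, against 3.16 to 3.37 CPM in NAC 3 to 5 and 2.68 to 3.12 CPM in control 3 to 5. Derl3 was at 0.457 to 0.914 CPM in NAC 1 and 2 and 0.17 to 0.606 CPM in control 1 and 2, against 3.82 to 5.78 CPM in NAC 3 to 5 and 2.73 to 3.25 CPM in control 3 to 5, so the sets stood in the opposite order for it and for Sdc1. Fkbp11 was at 8.36 to 12.5 CPM in NAC 1 and 2 and 1.64 to 2.43 CPM in control 1 and 2, against 1.78 to 2.95 CPM in NAC 3 to 5 and 1.09 to 1.38 CPM in control 3 to 5. The summed level of the 6 plasma cell markers was 34.6 to 35.4 CPM in NAC 1 and 2 and 15.3 to 15.4 CPM in control 1 and 2, against 9.28 to 12.3 CPM in NAC 3 to 5 and 6.79 to 7.96 CPM in control 3 to 5. Of 8 B cell markers 5 were below 1 CPM in every library, and Cd79b led the rest. Their sum was 12.2 to 12.6 CPM in NAC 1 and 2 and 3.11 to 3.64 CPM in control 1 and 2, against 12.3 to 13.8 CPM in NAC 3 to 5 and 6.36 to 9.92 CPM in control 3 to 5. Myeloid markers summed to 12.5 to 17.5 CPM with NAC and 11.9 to 19.99 CPM in control, with 7 of 10 below 1 CPM in every library. The part of such cells in the ER results was not tested.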

How the data were processed

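Read counts and FPKM per gene and library were deposited by the authors in 1 table, per the file headers. FPKM as the authors gave it is the count over gene length and library total, and was used only for levels between genes. The aligner and counter are not given in the sources used; the submitters' processing notes name GRCm38 and mm10. Only 2.33% of the table's gene positions equal those of GENCODE M21, so genes are placed by chromosome.

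The main test, in R 4.3.3, was that of edgeR 4.0.16 (robust quasi-likelihood F test, two-sided, filterByExpr, TMM), NAC minus control, with Benjamini-Hochberg adjustment over 11403 genes and a threshold of 0.05. A second fit gave each group and library set its own mean, for within-set contrasts and the interaction. CPM values are TMM-normalised. At 13298108 to 17706439 reads per library the counting error is small for abundant genes. It is not small for genes near 1 CPM, such as Gpx7 and Fkbp7 in control (means 1.05 and 1.16 CPM), or for markers below 1 CPM. Both tests were tried on simulated counts. Alternatives were DESeq2 1.42.0 (size factors, Wald test), limma 3.58.1 (voom), library size alone, upper quartile factors, other count filters, a replicate block, a set term, each set alone and each library left out.

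The rule set for pairing was that every same-numbered pair's deviations from the group mean correlate above 0.1, and they did (0.48 to 0.60). Differently numbered libraries of the same set did so as well (0.47 to 0.58), and the best match of a library had its own number in 3 of 10 cases. The deviations include the difference between the sets, so the rule cannot show that libraries of equal number belong together. No 2 libraries of the same group agreed within sampling noise. The chi-square of their counts per degree of freedom was 30.7 for NAC 1 against NAC 2 and 4.63 for control 1 against control 2. For pairs of the same group within libraries 3 to 5 it was 2.42 to 3.52. NAC 1 and 2 thus agreed least among pairs of the same group and set. Values in every library are given for members called over all libraries, the 8 smallest adjusted p of the interaction, the most abundant member of each role, and Hspa5, Xbp1, Atf6, Ern1, Eif2ak3, Ero1a, Ero1b, P4hb and Prdx4; from the other lists, at most 2 called genes per direction are named. The members, lists, sets and this rule were chosen with earlier results of these data known. Promoter windows are RefSeq's for GRCm38.p6, and 29 of the members' 37 windows continue into a GENCODE M21 transcript.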

Additional observations from a re-analysis of the deposited data

Results flagged for a closer look

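In 4 genes 1 library lay far from the other 4 of its group. NAC 2 was low for Calr (422 CPM) and for Manf (53.1 CPM), NAC 1 was high for Erp29 (93.2 CPM), and control 2 was low for Dnajc3 (118 CPM). Among the 74 groups of 5 libraries examined, chance gives about 1 in 20.

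For 20 genes the NAC effect differed between the library sets in the interaction test by edgeR. The log2 fold change in libraries 1 and 2 minus that in libraries 3 to 5 was positive for Edem2 (0.64), Ero1b (0.59) and Sdf2l1 (0.56). It was negative for Ero1a (-1.08), Calr (-0.77), Hspa5 (-0.75), Edem3 (-0.73), Hsp90b1 (-0.71), Syvn1 (-0.69), Atf6 (-0.56), Hyou1 (-0.56), P4hb (-0.55), Tmx1 (-0.53), Pdia3 (-0.53), Dnajc10 (-0.46), Canx (-0.43), Txndc11 (-0.39), Sel1l (-0.37), Pdia4 (-0.28) and Edem1 (-0.26). Leaving out library 1 or 2 of a group leaves it a single library in its set, so those settings are not counted here. Among the other settings Txndc11 lost its call without NAC 4 (adjusted p = 0.0546 by edgeR). Pdia4 was called only with the reported setting, DESeq2 size factors and library size alone. Edem1 was called only with the reported setting and DESeq2 size factors. The rest of the 20 genes were called in all of them. The sets also differ in Cd4 and Cd8a, and the part of this in the effects was not tested.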

How the results depend on the processing

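Called over all genes were 1319, against 2287 by DESeq2's Wald test, 2254 with the replicate block, 4155 with a term for the library set, 5139 in libraries 1 and 2 alone and 5557 in libraries 3 to 5 alone. Leaving out 1 library gave 631 to 1405 genes, with 657, 631, 824, 866 and 857 without controls 1 to 5 and 696 without NAC 2. Of the ER genes 4 were higher, with 7 under the set term, 19 in libraries 3 to 5 alone, and 3 to 4 with 1 library left out. Lower were 0, with 1 by DESeq2's Wald test, 1 with the replicate block, 3 under the set term, 12 in libraries 1 and 2 alone, 7 in libraries 3 to 5 alone, and 0 to 2 with 1 library left out (2 without NAC 1, Dnajc10 and Creld2). Pairing by number changed no other call of an ER gene. The 20 differences between sets were 3 positive and 17 negative. Under alternatives that kept more than 1 library of each group in each set they were 3 positive and 14 to 18 negative. Leaving out library 1 or 2 of a group leaves it a single library in its set, so counts from those settings are not given. Log2 fold changes over all libraries that changed sign were, in libraries 1 and 2 alone, Ern1 -0.065, Hyou1 -0.34, Ero1a -0.67, Prdx4 0.037, Sel1l -0.15 and Derl1 -0.021. In libraries 3 to 5 alone they were Hspa5 0.18, Hsp90b1 0.10, Dnajb9 0.068, Sdf2l1 -0.20, Canx 0.082, Pdia3 0.023, Pdia4 0.12, P4hb 0.14, Manf 0.093, Herpud1 0.0018, Edem3 0.25, Syvn1 0.21 and Derl2 0.073. With library size alone they were Dnajb9 0.026, Pdia4 0.016, Manf 0.0030, Herpud1 0.0078, Edem3 0.016 and Derl2 0.012, and with upper quartile factors Dnajb9 0.042, Pdia4 0.059, P4hb 0.0025, Manf 0.040, Herpud1 0.026, Edem3 0.043 and Derl2 0.042. With limma-voom they were Sdf2l1 -0.0058, Pdia4 0.0091 and Ero1a -0.0069, and Pdia4 was 0.0089 with the block and 0.010 with the set term. Leaving out 1 library gave log2 fold changes over both signs for Derl1 -0.00030 to 0.21, Derl2 -0.058 to 0.035, Dnajb9 -0.24 to 0.21, Edem1 -0.22 to 0.018, Edem3 -0.085 to 0.12, Ern1 -0.014 to 0.33, Herpud1 -0.21 to 0.17, Hspa5 -0.15 to 0.086, Hyou1 -0.025 to 0.080, Manf -0.068 to 0.084, P4hb -0.11 to 0.020, Pdia4 -0.11 to 0.10, Prdx4 -0.26 to 0.026, Sdf2l1 -0.24 to 0.33 and Syvn1 -0.14 to 0.019. Of all values of single ER genes under alternatives, 660 kept direction and call and 73 changed sign. With the direction kept, 35 were newly called and 9 lost the call. Some values that changed sign were also called. Examples are Ero1a in libraries 1 and 2 alone (adjusted p = 0.00291 by edgeR) and Hspa5 in libraries 3 to 5 alone (adjusted p = 2.9e-06). The cause of these changes was not tested. Precision is limited by the fitted coefficient of variation between libraries, 26.6% over all and 3.60% in libraries 3 to 5 alone. The first value includes the difference between the sets. It was 13.1% with a term for the set and 16.4% with the replicate block.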

Other observations

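The level of Ero1a relative to Ero1b, as a ratio of their FPKM values, was 7.74 and 7.37 in NAC 1 and 2 and 24.2 and 22.5 in control 1 and 2. In libraries 3 to 5 it was 21.4, 20.5 and 21.6 with NAC and 22.6, 21.7 and 18.1 in control. NAC 1 and 2 thus stood apart from the 8 other libraries, which lay between 18.1 and 24.2. This ratio was chosen after the values were seen and was not tested.

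A variant of the ER stress element, ATTGG followed by 1 base and CCACG, was searched after the first results were known. Among the 32 genes with a window it was in those of Herpud1 and Dnajb11, and in 0.0365% of all windows.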
